A study of Homo sapiens with 6 samples.

Results

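Expression of 6 transcription factors that drive epithelial-mesenchymal transition (EMT) and of vimentin was followed in ovarian cancer cell lines labelled as knocked down for or made to express Hic-5. The members were SNAI1, SNAI2, TWIST1, TWIST2, ZEB1, ZEB2 and VIM. Every non-control probe whose gene name in the scanner files is one of these symbols was taken, which gave 12 of the 41000 probes and 7 of the 29123 gene names of the Agilent Whole Human Genome array. SNAI1, TWIST2 and ZEB1 have 1 probe each, SNAI2, TWIST1 and VIM have 2, and ZEB2 has 3. Of these probes, 9 entered the test in SKOV3 and 10 were compared in A2780s.

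SKOV3 is a human ovarian adenocarcinoma line of mesenchymal morphology. The clones given as sh-S1 and sh-S2 were made from SKOV3 with lentiviral pLKO.1-puro vectors that carry shRNAs against Hic-5, the protein encoded by TGFB1I1, and selected in puromycin. Their Ctrl, labelled as mock-transfected, came from a SKOV3 clone with the same vector and a scramble sequence. A2780s is a human ovarian cancer line of epithelial morphology, in which the clone pCMV-Hic-5 carries the Hic-5 gene in the pCMV6 vector under a viral promoter and was selected in neomycin, and its Ctrl is a clone with the empty vector. Each RNA stands for 1 clone, so a difference between individual clones and an effect of the vector cannot be told apart. On each of the 6 arrays a modified clone and its Ctrl were hybridized together, one in Cy3 and one in Cy5, and each pair was repeated with the dyes exchanged. This gave 2 arrays for each of sh-S1, sh-S2 and pCMV-Hic-5. In SKOV3 the 2 clones are the replicates and share 1 Ctrl RNA, whose own spread is left out of the test, and in A2780s there is 1 pair of RNAs and no test. Nothing states that repeated RNAs came from separate cultures, so p-values cover no spread between cultures. They rest on the spread between these clones, which the test draws toward a spread common to all probes (prior degrees of freedom 5.67).

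EMT is the change by which epithelial cells lose junctions and polarity and take on a migratory, fibroblast-like form. The zinc finger factors SNAI1 (Snail), SNAI2 (Slug), ZEB1 and ZEB2 and the basic helix-loop-helix factors TWIST1 and TWIST2 bind E-box motifs and repress epithelial genes such as CDH1, which encodes E-cadherin. TWIST proteins bind DNA as dimers with E proteins, and ID proteins take E proteins out of such dimers. VIM encodes vimentin, the main intermediate filament protein of mesenchymal cells and a common marker of the changed state.

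The values below come from short stretches of each transcript, so the probes on which the results turn are shown first. Each probe is 60 bases long. The first 30 bases are printed from the 5′ end with G and C in capitals, because the probes differ in base composition and signal. Positions are those of hg19 in the scanner files.
SNAI1 A_23_P131846: aaCaatGtCtGaaaaGGGaCtGtGaGtaat
TWIST1 A_23_P71067: aGCGGCaCCatCCtCaCaCCtCtGCattCt
TWIST1 A_23_P71073: GCtGGataaCtaaaaataaaaatatatGCC
VIM A_23_P161190: tGattaaGaCGGttGaaaCtaGaGatGGaC
VIM A_23_P161194: CCaGatGCGtGaaatGGaaGaGaaCtttGC
The SNAI1 probe lies on the plus strand at chr20:48605170-48605229 and has a GC content of 53.3%. The TWIST1 probes lie on the minus strand at chr7:19155500-19155559 (A_23_P71067) and chr7:19155645-19155704 (A_23_P71073), with starts 145 bases apart. Their GC contents are 45% for A_23_P71067 and 26.7% for A_23_P71073, against a median of 41.7% over all probes of the array. VIM probe A_23_P161194 lies at chr10:17277185-17277244. VIM probe A_23_P161190 is placed at chr10:17278347-17279256, a span of 910 bases for 60 bases of probe, so its bases come from separate stretches of the genome. Both VIM probes are on the plus strand.

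As a check of the labels, TGFB1I1, read by the 1 probe A_23_P141055, gave log2 ratios of clone over Ctrl of -0.16 and 0.12 for sh-S1 and of -0.12 and 0.28 for sh-S2, with the clone in Cy5 and in Cy3 respectively. Its mean over these clone RNAs was 0.03 ± 0.07 (SD, n = 2 clones; adjusted p = 0.856 by limma), so the targeted transcript was not lower in them and directions given for SKOV3 rest on the labels. Its level, a log2 channel value, was 8.28 in Cy3 and 8.17 in Cy5 in SKOV3 Ctrl against 11.88 and 13.75 in A2780s Ctrl, on separate slides, and whether the SKOV3 RNAs match their labels was not tested. In pCMV-Hic-5 it was 4.05 and 2.60, a mean of 3.33, the highest of the 30504 probes compared. Median signals above local background in SKOV3 were 373 to 530 in Cy3 but 9.52 to 25.5 in Cy5, against 325 to 369 and 441 to 568 in A2780s, which, with the few arrays, bounds the precision of the SKOV3 ratios.

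In SKOV3, TWIST1 and SNAI2 were higher in both clone RNAs, sh-S1 and sh-S2, than in Ctrl, and no member probe was called lower. Calls in SKOV3 required 2-fold or more and limma's adjusted p no higher than 0.05. Of the 9 member probes tested, 2 were called higher and 0 lower, where 2.98% of the 24935 probes tested were called higher and 4.16% lower. At an unadjusted p under 0.05 by limma and with no demand on the fold, 6 member probes were higher in the clones (both of SNAI2, TWIST1 and VIM) and 2 were lower (SNAI1 and TWIST2). In A2780s, SNAI1 was the member past the rule of at least 1.5-fold in the mean and the same direction on both arrays. That was 1 of 10 member probes higher and 0 lower, where 3.26% of 30504 probes were past the rule higher and 1.32% lower.

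**Figure D1:**
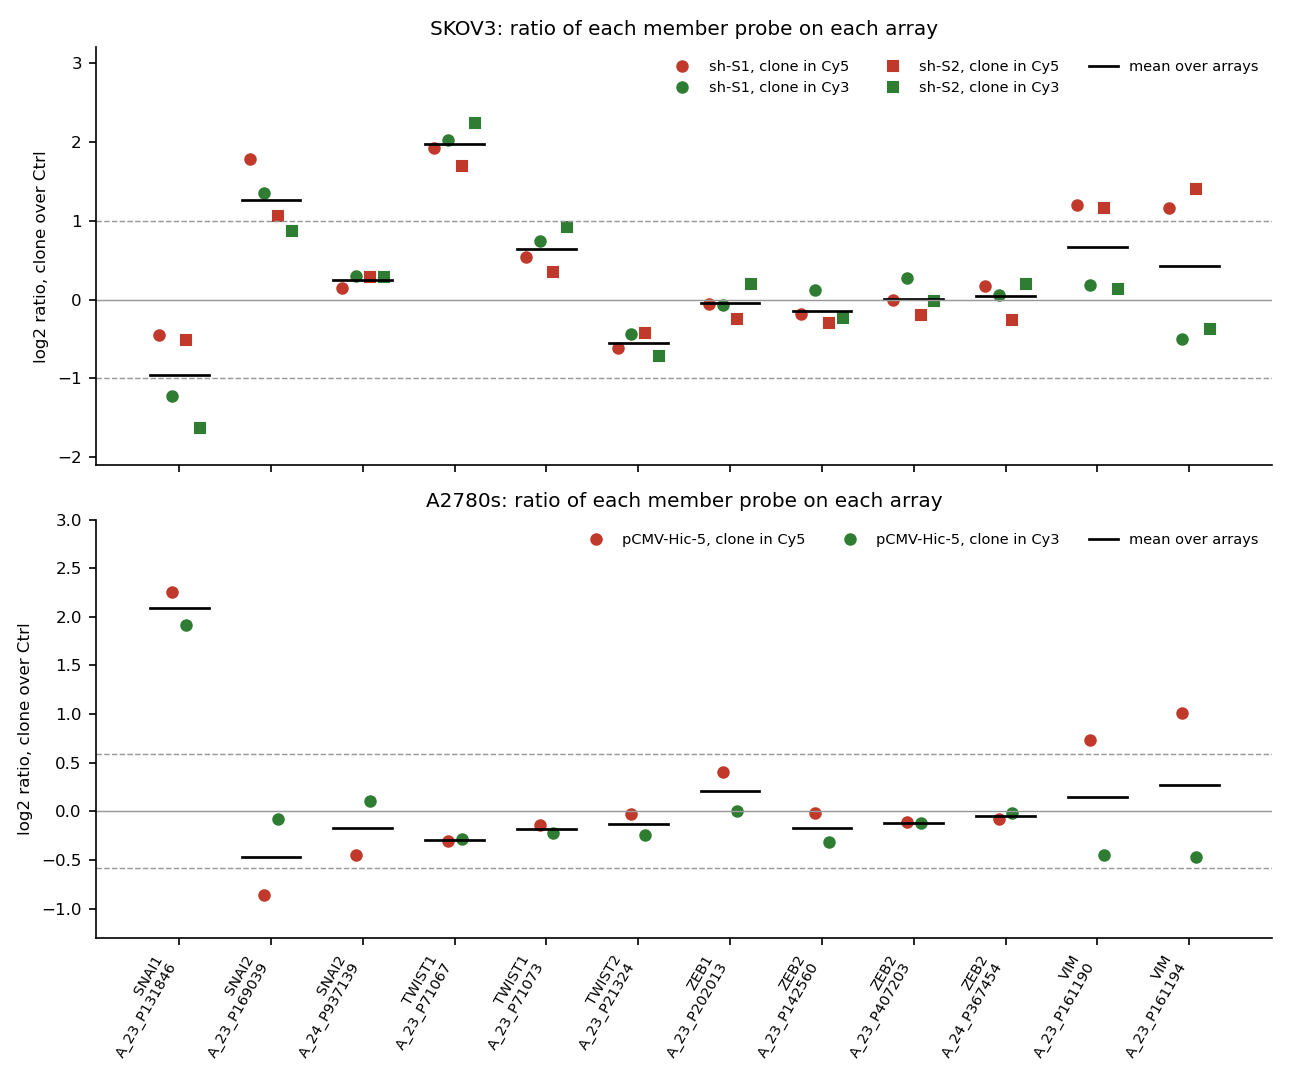
Log2 ratio of modified clone over Ctrl for each of the 12 member probes on each array, SKOV3 above and A2780s below, with points coloured by the dye of the clone, short lines for the mean and dashed lines at 2-fold (SKOV3) and 1.5-fold (A2780s). TWIST1 probe A_23_P71067 lies between 1.69 and 2.24 on the SKOV3 arrays, SNAI1 lies at 1.92 and 2.26 in A2780s, and the VIM points separate by dye.

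TWIST1, a basic helix-loop-helix factor of mesoderm that induces EMT when expressed in epithelial cells, changed most among the members in SKOV3. Probe A_23_P71067 gave log2 ratios of 1.92 (sh-S1 in Cy5), 2.03 (sh-S1 in Cy3), 1.69 (sh-S2 in Cy5) and 2.24 (sh-S2 in Cy3). All 4 arrays were on the same side and near 4-fold, and the clones were higher than Ctrl in both dyes. The mean was 1.97 ± 0.0086 (SD, n = 2 clones), a 3.91-fold rise (SE 0.09, limma's adjusted p 1.79e-05), and it stood at place 138 from the top of the 24935 probes. The channel levels show the same difference: on the log2 scale, TWIST1 was at 9.53 and 9.67 in Cy3 and at 9.64 and 10.07 in Cy5 in Ctrl, at 12.09 in Cy3 and 11.45 in Cy5 in sh-S1, and at 11.87 in Cy3 and 11.36 in Cy5 in sh-S2. No clone channel overlapped a Ctrl channel. In A2780s both RNAs were high, at 12.24 and 12.34 in Ctrl and 12.05 and 11.94 in pCMV-Hic-5, and the ratios were -0.30 and -0.28, short of the rule.

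The AT-rich probe A_23_P71073 of TWIST1 moved the same way by less. Its log2 ratios were 0.54 and 0.74 in sh-S1 and 0.35 and 0.92 in sh-S2, with the clone in Cy5 and in Cy3, and the mean of 0.64 ± 0.0053 (SD, n = 2 clones; adjusted p = 0.00247 by limma) was short of 2-fold. In Ctrl this probe was well above background in Cy3, at signals of 188 and 168 over local backgrounds of 40 and 38, but not in Cy5, at 49.3 and 51.4 over 41.5 and 39. Its mean ratio passed the call with a smaller normexp offset of 16, with median centring in place of loess (1.46) and on Feature Extraction's processed signals (2.79). Probe A_23_P71067 was called under each of the 8 alternatives with a test, at 1.80 to 2.45.

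SNAI2 encodes Slug, the zinc finger factor of migrating neural crest. Its probe A_23_P169039 gave log2 ratios of 1.78 and 1.35 in sh-S1 and of 1.06 and 0.87 in sh-S2, with the clone in Cy5 and in Cy3. All 4 arrays were higher in the clone, and both sh-S1 values lay above both sh-S2 values. The mean was 1.26 ± 0.43 (SD, n = 2 clones), a 2.4-fold rise (SE 0.15, limma's adjusted p 0.000975). The call rests on sh-S1, since sh-S2 alone was at 0.96, short of 2-fold, and sh-S1 alone was at 1.57. Levels in Ctrl lay between 11.52 and 12.08 over 4 channels, below the 13.03 and 13.39 of sh-S1 and the 12.94 and 12.58 of sh-S2. In A2780s the ratios were -0.86 with pCMV-Hic-5 in Cy5 and -0.08 with it in Cy3. They had the same sign but a mean of -0.47, short of the rule, and the array with the clone in Cy5 was past the fold by itself.

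A dim probe carries the same symbol. A_24_P937139, listed for another transcript record of SNAI2 and without a position in the files, gave 0.14 and 0.30 in sh-S1 and 0.28 and 0.29 in sh-S2, with a mean of 0.25 (limma's adjusted p = 0.088). In Ctrl its Cy5 signals were 46.7 and 48.4 over backgrounds of 46 and 44, not well above background. On the processed signals the mean was 1.48 and was called.

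SNAI1 encodes Snail, a direct repressor of CDH1. It was lower in both SKOV3 clones and higher in the Hic-5 expressing A2780s clone. In SKOV3 its log2 ratios were -0.45 and -0.52 with sh-S1 and sh-S2 in Cy5 and -1.22 and -1.63 with them in Cy3. All 4 arrays were lower in the clone, and the arrays with the clone in Cy3 showed more than 2-fold. The mean of -0.96 ± 0.17 (SD, n = 2 clones; SE 0.10, adjusted p = 0.000674 by limma) was a 1.94-fold difference, just short of the call. With the clone in Cy5 the spot signal was 53.4 over a background of 41 in sh-S1, not well above background, and 57.4 over 41 in sh-S2, whereas in Cy3 it was 242 over 36 and 282 over 35. SNAI1 was called lower under 5 alternatives: without background correction (-1.13), with a normexp offset of 16 (-1.38), with median centring (-1.38), on the processed signals (-2.14) and with the clones in Cy3 alone (-1.43). By itself sh-S2 was past 2-fold, at -1.08, and sh-S1 was not, at -0.84.

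In A2780s the SNAI1 ratios were 2.26 with pCMV-Hic-5 in Cy5 and 1.92 with it in Cy3. Both arrays were about 4-fold higher, with a mean of 2.09, or 4.25-fold, which was place 19 from the top of 30504 probes. Levels were 7.57 in Cy3 and 7.78 in Cy5 in Ctrl against 9.70 in Cy3 and 9.82 in Cy5 in pCMV-Hic-5, and every spot was well above background. The ratio lay between 1.70 and 2.34 over the 8 alternatives run in this line, all past the rule. The lowest of these came from fitting the background model on all spots, on an array where 40 spots had a local background over 1000. The lines were tested on separate slides, and the difference between their SNAI1 responses was not tested.

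TWIST2 is the close paralog of TWIST1. Its probe A_23_P21324, at chr2:239832044-239832103, went the other way in SKOV3, at -0.62 and -0.43 in sh-S1 and -0.42 and -0.72 in sh-S2, with the clone in Cy5 and in Cy3. All 4 arrays were below 0. The mean of -0.55 ± 0.03 (SD, n = 2 clones; adjusted p = 0.00477 by limma) was past the p and short of 2-fold, and no alternative called it. In A2780s the ratios were -0.03 and -0.24.

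ZEB1 and ZEB2 repress epithelial genes and are held down by miR-200 in epithelial cells. No probe of either was called or past the rule. The ZEB1 probe A_23_P202013, at chr10:31812939-31812998, was not well above background in Ctrl on 1 of 4 SKOV3 arrays or in the clones in Cy5, and was not tested there. Its ratios lay between -0.25 and 0.20 in SKOV3 and were 0.41 and 0.00 in A2780s. ZEB2 probe A_23_P142560, on the minus strand at chr2:145146261-145146320, gave -0.19 and 0.12 in sh-S1 and -0.29 and -0.23 in sh-S2. The mean of -0.15 ± 0.16 (SD, n = 2 clones; adjusted p = 0.347 by limma) was within the spread of the arrays, and in A2780s the ratios were -0.01 and -0.32. The other ZEB2 probes, A_23_P407203 and A_24_P367454, are listed for a non-coding transcript whose positions start 124554 bases apart from the first at the most. A_23_P407203 was not well above background in any channel of any array. A_24_P367454 was well above it in 4 of 8 SKOV3 channels, those in Cy3, and neither probe was tested. A fall in that transcript may thus have gone undetected, while a rise that took a clone clear of background in each dye would have been tested.

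The ratio of VIM depended on the dye. Probe A_23_P161190 gave 1.20 and 1.16 with sh-S1 and sh-S2 in Cy5 and 0.18 and 0.14 with them in Cy3. Probe A_23_P161194 gave 1.15 and 1.40 in the first orientation and -0.50 and -0.37 in the second. The clones lay close to each other within an orientation, while the orientations differed by 1.02 at A_23_P161190 and by 1.71 at A_23_P161194. Averaged over the dyes, the log2 ratios were 0.67 ± 0.03 (SD, n = 2 clones; adjusted p = 0.00199 by limma) and 0.42 ± 0.13 (adjusted p = 0.0181 by limma). Both passed the p and were short of 2-fold, and the test on averages does not see the dye difference. With the clone in Cy5 alone both probes were called higher, at 1.18 and 1.28, and with it in Cy3 alone A_23_P161190 was at 0.16 and A_23_P161194 turned to -0.43.

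The same split appeared in A2780s. With pCMV-Hic-5 in Cy5 the VIM ratios were 0.73 at A_23_P161190 and 1.01 at A_23_P161194, and with it in Cy3 they were -0.44 and -0.47. The sign turned with the dye at both probes, the means were 0.14 and 0.27, and no direction held. Among all probes the median difference between orientations was 0.32 in SKOV3 and 0.219 in A2780s. The VIM differences exceeded those of 91.8% and 98.7% of probes in SKOV3 and of 99.7% and 99.9% in A2780s, in the order A_23_P161190, A_23_P161194. Signals of A_23_P161194 in A2780s were 102000 and 201000 in Cy3 and 465000 and 454000 in Cy5, and no VIM spot was marked as saturated. The part of dye and signal strength in the VIM ratios was not tested.

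**Figure D2:**
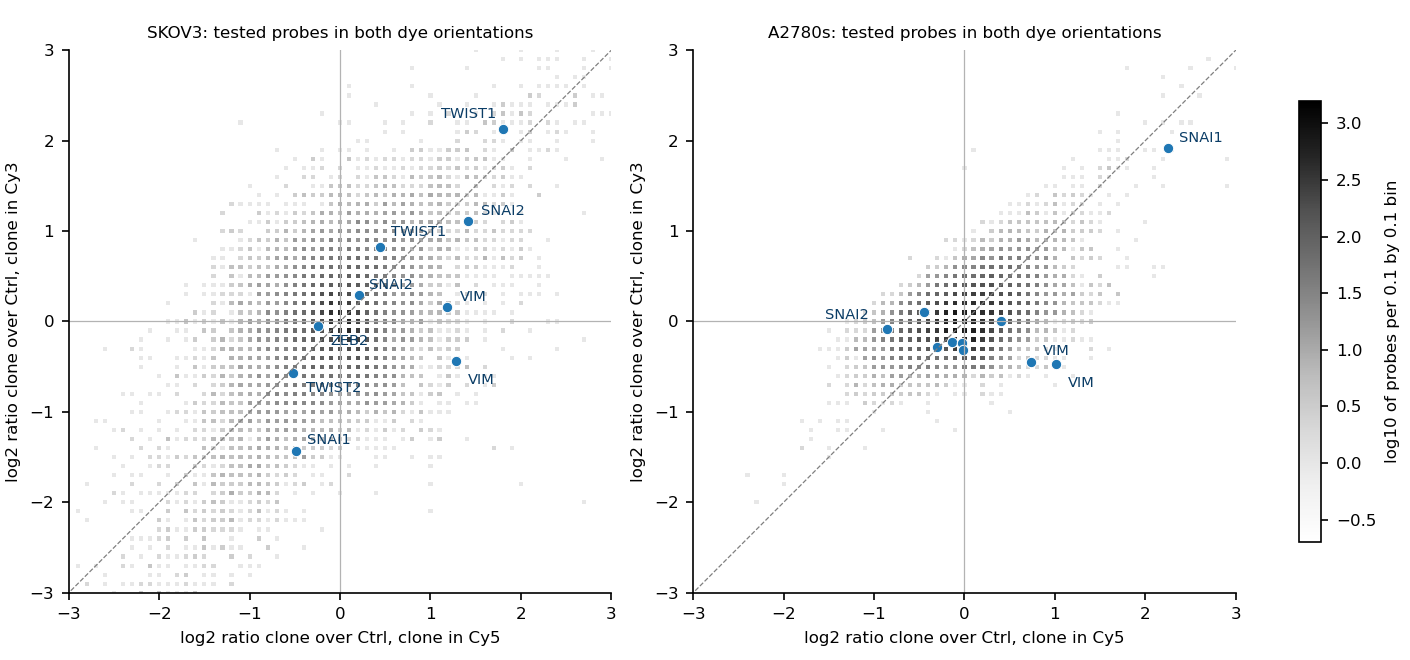
Log2 ratio of clone over Ctrl with the clone in Cy5 (x axis) against the clone in Cy3 (y axis), with grey squares for all tested probes in bins of 0.1 and blue points for member probes; in A2780s only points beyond 0.5 on an axis are named. TWIST1 and SNAI2 in SKOV3 and SNAI1 in A2780s lie near the dashed line of equal values, and both VIM probes lie far to its right in both lines.

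The levels of the members in the 5 RNAs place these changes on the scale of each probe. Levels are log2 channel values after loess and Aquantile normalization, comparable between RNAs for 1 probe but not between probes, and SKOV3 and A2780s lie on separate slides and scans, so slide and line cannot be told apart. TWIST1 (A_23_P71067) was lowest in SKOV3 Ctrl, with a mean of 9.73, followed by sh-S2 (11.62), sh-S1 (11.77), pCMV-Hic-5 (12.00) and A2780s Ctrl (12.29). The channels of sh-S1 and sh-S2 overlapped, and the upper channel of sh-S1, at 12.09, lay above both channels of pCMV-Hic-5. SNAI2 was also lowest in SKOV3 Ctrl (11.72), then pCMV-Hic-5 (12.30), sh-S2 (12.76), A2780s Ctrl (12.77) and sh-S1 (13.21), with overlapping channels for sh-S2 and A2780s Ctrl. SNAI1 was highest in pCMV-Hic-5 (9.76), then SKOV3 Ctrl (8.99), sh-S1 (8.12), sh-S2 (7.95) and A2780s Ctrl (7.67). The channels of sh-S1 and sh-S2 spread from 7.22 to 8.96, with Cy5 levels within the range of SKOV3 Ctrl, whose channels reached 9.41. The Cy5 signals were 53.4 (sh-S1) and 57.4 (sh-S2) against 98.6 and 128 in SKOV3 Ctrl, so those Cy5 levels do not order these RNAs.

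Read within Cy3, the brighter dye in SKOV3, the clones lay closer to A2780s Ctrl than SKOV3 Ctrl did at these probes of the 3 genes. TWIST1 was 2.64 lower in SKOV3 Ctrl than in A2780s Ctrl, but 0.15 lower in sh-S1 (12.09 against 12.24) and 0.37 lower in sh-S2. For SNAI2 the differences from A2780s Ctrl were -1.51 in SKOV3 Ctrl, -0.05 in sh-S1 and -0.14 in sh-S2. For SNAI1 they were 1.74, -0.28 and -0.35. In Cy5, TWIST1 was 0.88 and 0.98 below A2780s Ctrl in sh-S1 and sh-S2, and 2.48 below it in SKOV3 Ctrl. The Cy5 level of SNAI1 was 1.18 and 0.90 above it, and 0.90 above it in SKOV3 Ctrl. Its Cy5 signals were 53.4 and 57.4 in the clones against 98.6 and 128 in SKOV3 Ctrl, so these levels do not tell which RNA was closer. The Cy5 level of SNAI2 was 0.94 and 0.12 above A2780s Ctrl in sh-S1 and sh-S2, where SKOV3 Ctrl was 0.58 below. The dim probes lay farther off in Cy3, with A_24_P937139 of SNAI2 at -0.94 in sh-S1 and -0.93 in sh-S2 and A_23_P71073 of TWIST1 at -0.81 and -0.71. In Cy5 levels, A_23_P71073 was at -1.83 in sh-S1, -2.16 in sh-S2 and -1.11 in SKOV3 Ctrl, an order opposite to that of its Cy5 signals given above. TWIST2 in the clones lay between the Ctrl RNAs of the lines, at 1.47 above A2780s Ctrl in SKOV3 Ctrl, 0.76 in sh-S1 and 0.34 in sh-S2 in Cy3. Other members were mixed in Cy3, given here in the order SKOV3 Ctrl, sh-S1 and sh-S2. The clones were farther off at VIM probe A_23_P161194 (0.60, 0.99 and 1.04) and at ZEB1 (0.04, -0.27 and -0.34). They were closer at VIM probe A_23_P161190 (-0.68, -0.08 and -0.33) and ZEB2 probe A_23_P142560 (0.62, 0.43 and -0.01). TGFB1I1 was at -3.60, -3.21 and -3.82. All these differences are descriptions over 1 or 2 channels and share the A2780s Ctrl RNA, and those in Cy5 carry the limit given above.

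**Figure D3:**
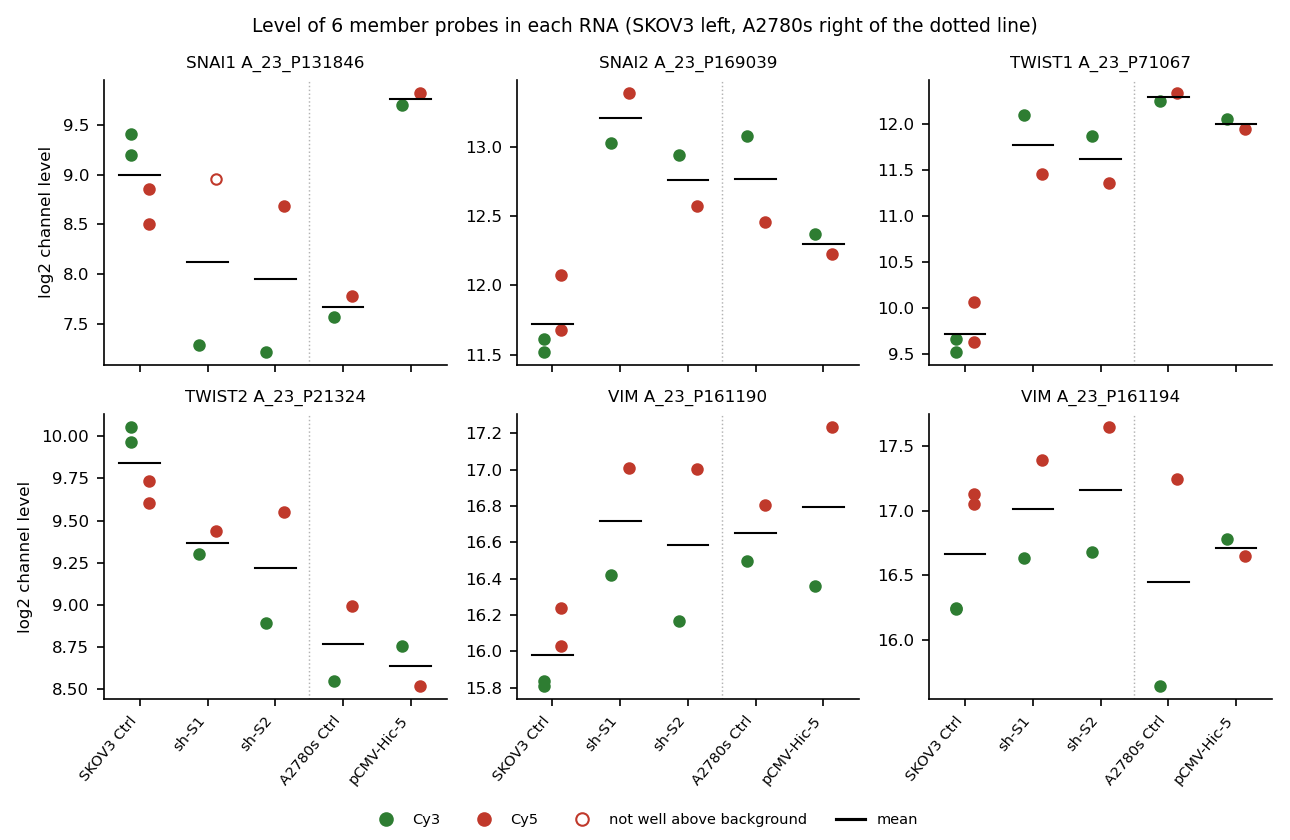
Log2 channel level of 6 member probes in the 5 RNAs, with green points for Cy3, red for Cy5, an open point for a spot not well above background and lines for means over channels. SKOV3 Ctrl has 4 channels and every other RNA 2, and TWIST1 in sh-S1 and sh-S2 lies between 11.36 and 12.09, above the 9.53 to 10.07 of SKOV3 Ctrl.

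Among genes of E proteins and of their ID inhibitors, the ID genes made up most of the calls in SKOV3. Of 7 tested, 4 were called higher and 0 lower, with a median log2 ratio of 1.14 against 0.0017 over all probes tested. The shares over all probes, beside which this and the later lists are to be read, were 2.98% higher and 4.16% lower in SKOV3. In A2780s, 3.26% of probes were past the rule higher and 1.32% lower. TCF4, an E protein that dimerizes with TWIST1, rose by 2.14 ± 0.24 (SD, n = 2 clones; adjusted p = 3.1e-05 by limma), and another of its probes by 1.57. ID2 (1.90), ID3 (1.58) and ID4 (1.14), inhibitors of such dimers, were called higher as well. The E protein genes TCF3 (-0.94) and TCF12 (0.33) and the inhibitor gene ID1 (-0.35) were not called. In A2780s, ID4 (-0.96) and ID1 (-0.69) were past the rule lower and the median was -0.27, against -0.0072 over all probes.

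Other factors that induce EMT went both ways in SKOV3. Of 15 tested, 5 were called higher and 3 lower, where 2.98% and 4.16% of all probes were, and the median was 0.0054. The T-box factor TBX2 rose by 3.87 ± 0.04, and the chromatin protein HMGA2 by 3.69 ± 0.25 (SD, n = 2 clones each), and TCF4 was called as given above. A second HMGA2 probe was at 0.51 and not called. FOXQ1, at 1.22, had a second probe at -0.61. Lower were the forkhead factor FOXC1 (-1.93), GATA6 (-1.58) and SOX4 (-1.04), with second probes of FOXC1 and SOX4 at -0.60 and -0.31, not called. In A2780s, FOXQ1 alone of 15 was past the rule, at 0.72 with array values of 1.19 and 0.24. None of the 5 close relatives of the members tested in SKOV3, such as SNAI3 at 0.02, and none of the 6 in A2780s was called. At an unadjusted p under 0.05, limma had 1 of the relatives higher in SKOV3, TCF21 at 0.61, and 1 lower, TCF15 at -0.47.

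Genes of proteins that act with or on the members were called at shares to be read against the 2.98% higher and 4.16% lower over all probes. Of 18 corepressors and chromatin partners, 1 was called lower in SKOV3, AJUBA, a LIM protein that binds SNAIL, which was -1.25 ± 0.37 (limma, adjusted p = 0.000718; SD over 2 clones). LOXL2, which modifies SNAIL, was at -0.84, short of 2-fold. Of 17 regulators of SNAIL and TWIST protein stability, 0 reached 2-fold, while 5 were higher and 2 lower by limma's adjusted p alone. These included the SNAIL phosphatase gene CTDSP2 (0.95), the ubiquitin ligase genes MDM2 (0.66) and FBXL5 (-0.84), and the kinase gene GSK3B (-0.31) was not among them. A second FBXL5 probe went the other way, at 0.50 (adjusted p = 0.0103 by limma), so FBXL5 had no single direction. In A2780s 0 of 18 were past the rule by the brightest probe of each gene. MDM2 probe A_23_P309545 was past it, at 0.88, while other MDM2 probes at 0.42 and 0.22 were not. Of 6 factors that hold the epithelial state, KLF5 was called lower in SKOV3, at -1.03, with a second probe at -2.71, and ZEB antagonists OVOL2 (-0.13) and GRHL3 (0.07) were not called.

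**Figure D4:**
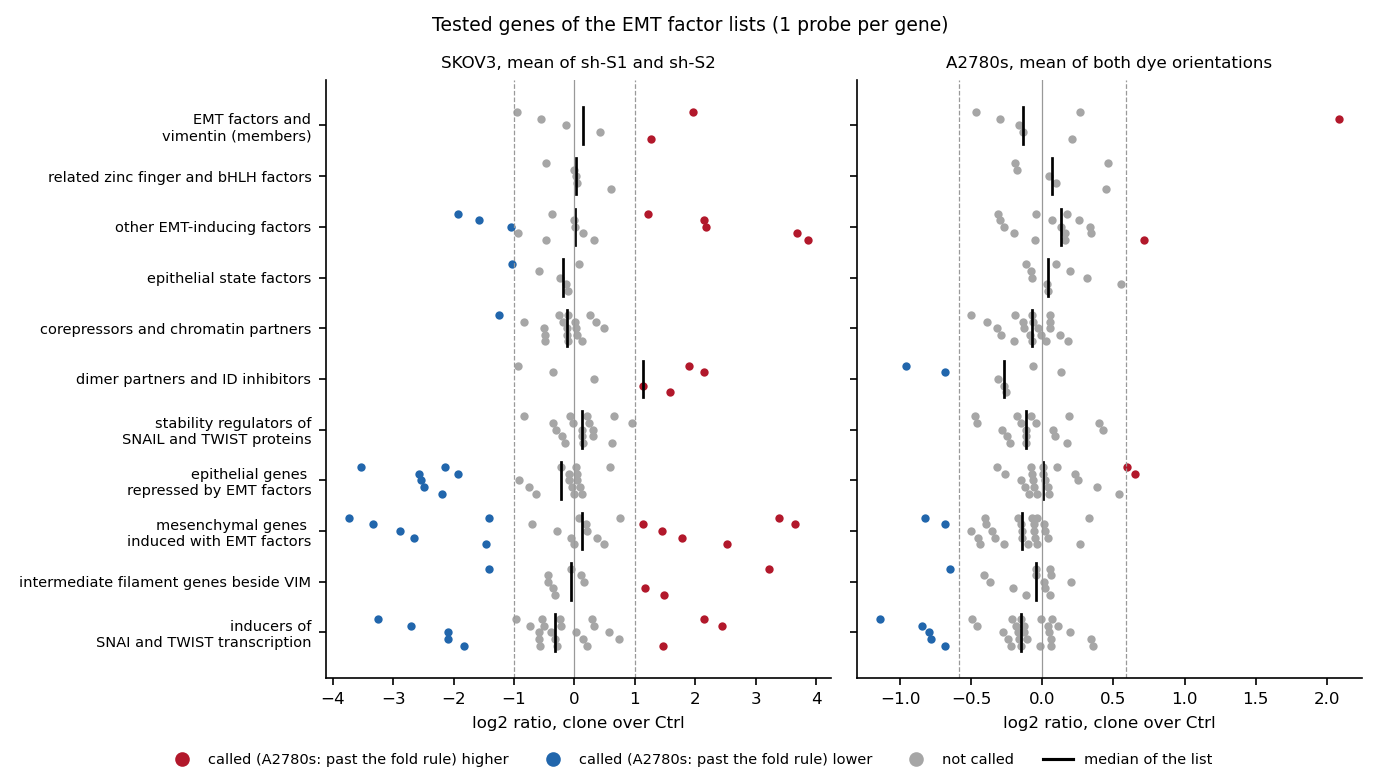
Log2 ratio of clone over Ctrl for each tested gene of the lists around the EMT factors, 1 probe per gene, with SKOV3 on the left and A2780s on the right, red and blue points for genes called or past the fold rule and black lines for the list medians. In SKOV3 called genes lie on both sides of 0 in the mesenchymal list (6 and 6) and on the lower side in the epithelial list (0 and 7).

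Epithelial genes that EMT factors repress were called lower or not called in SKOV3. Of 21 tested, 0 were called higher and 7 lower, where 2.98% and 4.16% of all probes were, and the median was -0.22. By limma's adjusted p alone, 1 was higher and 10 were lower. The keratin genes KRT18 (-3.53 ± 0.10) and KRT19 (-2.55 ± 0.02), the tight junction gene CLDN1 (-2.58 ± 0.05) and the desmosome gene PKP3 (-2.49 ± 0.39; SD, n = 2 clones each) fell furthest. For CDH1, 2 of the 4 clone channels and 2 of the 4 Ctrl channels stood well above background in SKOV3 and none did in A2780s, so it entered no test. In A2780s, the junction gene JUP (0.65) and KRT18 (0.59) were past the rule higher and 0 of 22 lower. By probes other than its brightest, OCLN was past the rule higher as well, at 0.74 and 0.59.

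Mesenchymal genes split. Of 22 tested in SKOV3, 6 were called higher and 6 lower, where 2.98% and 4.16% of all probes were, and the median was 0.13. The fibrillar collagen gene COL3A1 (3.65), the smooth muscle genes CNN1 (3.39) and ACTA2 (2.53) and the matrix gene SPARC (1.78) rose. The hyaluronan receptor gene CD44 (-3.73), fibronectin FN1 (-3.33), S100A4 (-2.88) and the receptor kinase gene AXL (-2.65) fell, with a second FN1 probe at -0.71. In A2780s, 0 of 26 were past the rule higher, and PDGFRA (-0.83) and ITGB1 (-0.68) were lower. Other ITGB1 probes were at -0.53 and -0.45 in A2780s, short of the rule. Among intermediate filament genes beside VIM, the neurofilament gene NEFH (3.23), nestin (NES, 1.48) and LMNB1 (1.17) were called higher and LMNA (-1.42) lower of 11 tested in SKOV3, and NEFH was at -0.65 in A2780s.

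Signals upstream of SNAI and TWIST transcription included both directions. Of 27 genes tested in SKOV3, 3 were called higher and 5 lower, where 2.98% and 4.16% of all probes were, and the median was -0.32. HGF, a ligand that scatters epithelial cells, rose by 2.44 ± 0.14, BMP7 by 2.15 ± 0.17 and the NOTCH target HEY1 by 1.46 ± 0.62 (SD, n = 2 clones each). MET, the receptor of HGF, was at -3.26 with other probes at -0.23 and -0.07 that were not called, and a second BMP7 probe was at 0.19. The TGF-beta receptor gene TGFBR2 (-2.71), HIF1A (-2.09) and the NOTCH ligand gene JAG1 (-2.09) fell. In A2780s, 5 of 30 were past the rule lower, where 1.32% of all probes were. Among them were EGR1 (-1.14), TGFB2 (-0.85), HEY1 (-0.80) and NOTCH2 (-0.79).

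Some cell type markers moved along with these groups in SKOV3. All 4 keratin markers of a carcinoma line were well above background in Ctrl on every array, and the log2 summed level of the 3 keratins measured on all arrays was 14.85 to 15.48 in Ctrl against 12.00 to 12.70 in the clones and 10.46 to 10.89 in A2780s. PAX8, a marker of Müllerian epithelium, was at -3.58 in the clones. The summed level of 7 ovarian and Müllerian markers was 13.61 to 14.13 in SKOV3 Ctrl, 11.35 to 11.83 in the clones and 10.88 to 11.27 in A2780s. Of the 5 of these genes tested in SKOV3, PAX8 was called lower and LHX9 higher (1.43), and WT1 (-0.02), MUC16 (0.06) and SOX17 (0.09) were not called. The summed level of 6 fibroblast markers, led by COL3A1, was 10.37 to 10.74 in SKOV3 Ctrl, 12.58 to 13.83 in the clones and 13.06 to 13.36 in A2780s. Only 2 of these 6 genes were tested in SKOV3, and by limma's adjusted p 1 was higher and 0 lower. The summed level of the epithelial adhesion genes CDH1 and EPCAM lay between 7.83 and 8.67 in every RNA. Neither gene was well above background in SKOV3 Ctrl on all arrays and neither was tested in SKOV3, so a fall may have gone undetected. A rise that took a clone clear of background in each dye would have brought the gene into the test, and neither gene entered. Array ratios in SKOV3 lay between -0.05 and -0.02 for CDH1 and between -0.45 and 0.22 for EPCAM. Leukocyte and endothelial sums lay between 10.55 and 11.55 and between 9.65 and 10.14. The part of these marker differences in the TWIST1, SNAI2 and SNAI1 values was not tested, and a change in each cell and a change in which cells made up the clone cannot be told apart in bulk RNA.

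The genes whose 6 array ratios lay nearest to each member's brightest probe tested in both lines were found by the root mean square difference among 19056 or 19057 named probes. TWIST1 lay nearest to SIDT2 (0.174), PPAPDC3 (0.204) and SHROOM3 (0.21). SNAI2 lay nearest to HEBP1 (0.159), NDUFA4 (0.177) and PRCP (0.21). The nearest to SNAI1 were farther away, GCLM (0.336) and BTG1 (0.384). VIM (A_23_P161194) lay nearest to the ribosomal protein genes RPL7A (0.112), RPLP0 (0.183) and RPS2 (0.217), and TWIST2 to KPNA4 (0.107), BAZ1A (0.115) and PSMB1 (0.126). ZEB2, with ratios near 0, lay nearest to FFAR4 (0.075), PAPLN (0.09) and CT55 (0.093).

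**Figure D5:**
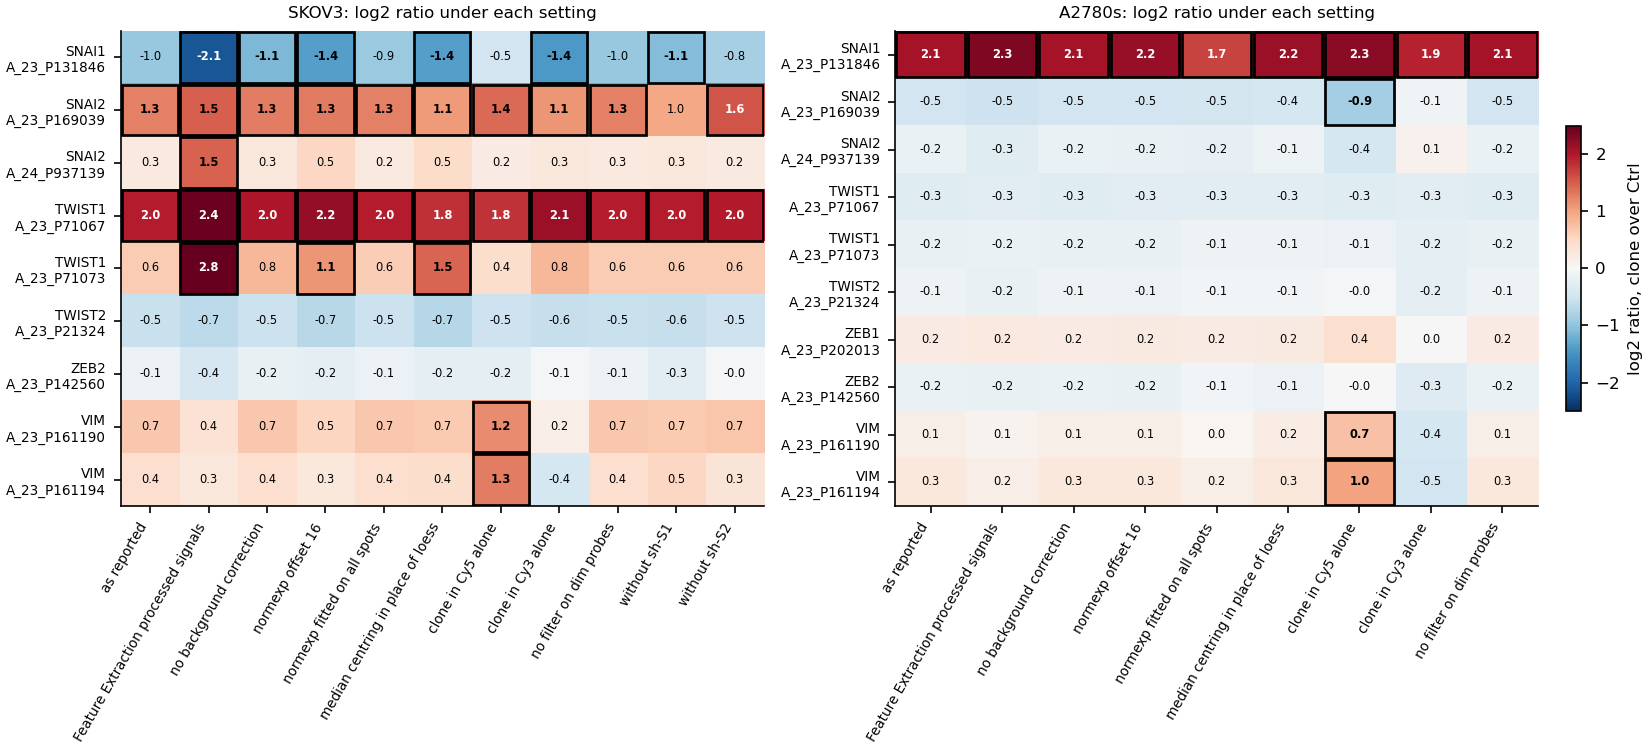
Log2 ratio of each tested member probe (rows) under the reported setting and each alternative (columns), SKOV3 on the left and A2780s on the right, with boxes around values that were called or past the fold rule. TWIST1 probe A_23_P71067 in SKOV3 and SNAI1 in A2780s are boxed in every column, and both VIM probes in both lines with the clone in Cy5 alone.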

How the data were processed

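RNA of SKOV3 and A2780s clones was measured on 6 arrays with both dyes of 45015 spots (1639 controls). The authors deposited the scanner output of Agilent Feature Extraction, version 8.5.1.1 in the submitters' notes and 10.7.3.1 in the file headers, with a mean intensity and a local background per spot and dye and no normalization. The same deposited files hold log10 ratios of Cy5 over Cy3 from the software's processed signals, and the deposited series matrix values equal these log10 ratios to within 0.00499, not turned on dye-swapped arrays. The background correction, normalization and test used by the study are not given in the sources used here. Which RNA each dye held was read off the channel labels.

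Intensities were corrected with normexp (offset 50) in limma 3.58.1 under R 4.3.3. The parameters were fitted without background outliers and without 40 spots of 1 array with a background over 1000, which were left out. Ratios were normalized by loess with control spots at weight 0. Spots with an outlier flag were dropped (121 to 362 per array), saturated spots were kept (1 and 16 in Cy5 on the A2780s arrays), spots of one probe were averaged, and log2 ratios were set as clone over Ctrl. Probes entered when well above background in Ctrl on all arrays of the line or in a clone on both arrays. In SKOV3, clone means over the dye swap were tested against 0 with lmFit and eBayes, with Benjamini-Hochberg adjustment over 24935 probes. The calling functions were tested on simulated data. All SKOV3 arrays lie on one slide and all A2780s arrays on another, each with its own scan.

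The members and gene lists were chosen with earlier results of these data known. The text names every member probe, TGFB1I1, the called genes of each list (up to 4 per direction and line, largest first, from the brightest probe of a gene) and the 3 nearest genes by ratio; other genes, FOXQ1 in SKOV3 among them, were picked with their values known. Some genes that this rule names are not reported here. Files were read with data.table, version 1.17.8. Files hold no depth other than signal over background.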

Additional observations from a re-analysis of the deposited data

How the results depend on the processing

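Alternatives were Feature Extraction's processed signals, no background correction, a normexp offset of 16, a normexp fit on all spots, median centring, each dye orientation alone, no filter on dim probes and each clone alone. The 2 member probes called higher in SKOV3 became 4 on the processed signals and 4 with the clone in Cy5 alone, 3 with an offset of 16 and 3 with median centring, and the 0 called lower became 1 on the processed signals, without background correction, with an offset of 16, with median centring and with the clone in Cy3 alone, each time SNAI1. With 1 clone left out, by fold alone since no test could be had, the count ranged from 1 to 2 higher and from 0 to 1 lower. In A2780s the clone in Cy5 alone gave 3 higher and 1 lower (SNAI2). VIM probe A_23_P161194 reversed in SKOV3 with the clone in Cy3 alone, at -0.433. Among single member probes in SKOV3, 80 of 93 values kept their call or lack of one, 12 gained a call and 1 lost it (SNAI2 without sh-S1), and in A2780s 79 of 82 kept it and 3 gained one, those with the clone in Cy5 alone. In A2780s 6 values moved beyond the spread of the dyes. The cause of these differences was not tested. Over all probes tested the reported 743 higher and 1038 lower in SKOV3 became 1963 and 2351 on the processed signals. In A2780s the reported 994 and 403 became 1366 and 700 on the processed signals, 669 and 297 with the fit on all spots, 1797 and 1519 with the clone in Cy5 alone and 1019 and 214 with it in Cy3 alone. A slide block could not be fitted, since each line has its own slide. No paired analysis was possible because each RNA pair is already a ratio on 1 array and the groups hold arrays with exchanged dyes, not samples paired across groups. The dim Cy5 channel of SKOV3 limits SNAI1, TWIST1 probe A_23_P71073, ZEB1 and ZEB2.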
